A study of Mus musculus with 32 samples.

Results

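The 32 genes described here make, control, export, carry or store cholesterol. They were taken as a fixed list of named genes, chosen with earlier results of these data known. The list is out of 36047 genes with an annotated transcript in the data, and all 32 were abundant enough to be tested. Of them, 19 encode enzymes of the synthesis pathway and 5 encode its regulators. Another 4 encode the LXR receptors and the exporters they control, and 4 encode proteins of cholesterol transport and storage. No receptor for lipoprotein uptake is among the 32.

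RNA sequencing measured transcripts in T cells of the liver and the spleen. The mice were male C57BL/6 of the Foxp3GFP genotype, a reporter in which green fluorescent protein marks cells that express Foxp3, the transcription factor of regulatory T cells. Regulatory T cells (Treg) carried TCRb, CD4 and Foxp3 at sorting. Conventional CD4 T cells (Tconv) carried TCRb and CD4 without Foxp3. The mice were given carbon tetrachloride (CCl4), a solvent that injures hepatocytes and is used to scar the liver, or were controls. Not given in the sources used here were the dose, the duration, the age of the mice and what the controls received. Each of the 4 populations (liver Treg, liver Tconv, spleen Treg and spleen Tconv) has 5 CCl4 and 3 control libraries, 32 libraries in 8 groups. All 8 groups carry the reporter, and the labels do not say whether a library is 1 mouse or a pool of mice.

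Cells build cholesterol from acetyl-CoA through mevalonate and squalene. The branch points of the pathway also supply the prenyl groups that anchor small GTPases to membranes. The transcription factor SREBP-2, encoded by Srebf2, switches the pathway genes on when sterols in the endoplasmic reticulum are low: SCAP escorts it to the Golgi for cleavage, and the INSIG proteins hold it back. When sterols are high, oxysterols activate the LXR receptors, which raise the exporters ABCA1 and ABCG1. T cells turn the pathway up when they are activated and divide, and Treg are known to use mevalonate products for their suppressive function.

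The promoters of 4 members are shown because these genes carry the results below. Mvk and Srebf2 fell after CCl4 under every alternative run, Hmgcs1 is an early enzyme that also fell, and Insig1 differed most between liver and spleen. The sequences are RefSeq's on build GRCm38.p6, cut to the part that no annotated exon covers. They run 5′ to 3′ along the gene. Capitals mark the matches to 3 motifs searched on both strands: the sterol regulatory element TCACNCCAC to which SREBP proteins bind, the CCAAT box to which NF-Y binds, and the GC box GGGCGG to which Sp1 binds. On the other strand the CCAAT box reads ATTGG and the GC box CCGCCC.
Mvk promoter (chr5:114444061-114444268, plus strand): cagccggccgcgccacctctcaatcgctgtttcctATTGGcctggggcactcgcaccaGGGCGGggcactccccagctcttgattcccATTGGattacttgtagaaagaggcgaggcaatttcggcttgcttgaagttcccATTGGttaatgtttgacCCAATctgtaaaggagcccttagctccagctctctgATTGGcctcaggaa
Srebf2 promoter (chr15:82147019-82147180, plus strand): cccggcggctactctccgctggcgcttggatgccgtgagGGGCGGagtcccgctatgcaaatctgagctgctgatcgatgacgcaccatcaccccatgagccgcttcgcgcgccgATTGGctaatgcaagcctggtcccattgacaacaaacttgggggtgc
Hmgcs1 promoter (chr13:119690101-119690350, plus strand): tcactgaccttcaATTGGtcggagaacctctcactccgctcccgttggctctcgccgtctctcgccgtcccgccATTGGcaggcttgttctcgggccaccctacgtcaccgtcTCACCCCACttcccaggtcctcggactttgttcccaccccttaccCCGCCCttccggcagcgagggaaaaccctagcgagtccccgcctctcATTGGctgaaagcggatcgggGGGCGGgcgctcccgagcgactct
Insig1 promoter (chr5:28071162-28071362, plus strand): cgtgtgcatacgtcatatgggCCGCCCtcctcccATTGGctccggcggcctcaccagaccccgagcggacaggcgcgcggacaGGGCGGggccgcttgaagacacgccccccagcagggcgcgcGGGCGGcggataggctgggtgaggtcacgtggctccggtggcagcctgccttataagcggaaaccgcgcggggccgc

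The Mvk stretch of 208 bases holds 5 CCAAT boxes and 1 GC box, the Srebf2 stretch 1 of each, and the Insig1 stretch 1 CCAAT box and 3 GC boxes. The Hmgcs1 stretch holds 3 CCAAT boxes, 2 GC boxes and 1 match to the sterol regulatory element, which begins 137 bases before the start that RefSeq gives. In these 4 stretches 0 matches overlapped each other. A promoter window from 250 bases before to 50 bases after a start was at hand for 26 of the 32 members, but not for Fdps, Fdft1, Sqle, Abcg1, Stard4 and Npc1. A CCAAT box lay in the windows of 21 of these 26 members and of 15 of the 16 synthesis members among them, against 41.1% of all 27025 genes with a window. GC boxes lay in 22 of the 26 members, against 38.2% of all genes. The sterol regulatory element in these exact letters lay in 1 of the 26, Hmgcs1, and in 1.44% of all genes. A match to letters is a description of the sequence, not a shown binding site.

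The start of Mvk (ENSMUSG00000041939.14, chr5:114444269-114460591, plus strand) lies 209 bases from that of Mmab, a gene of cobalamin metabolism on the other strand, so the stretch above is the space between these starts. Another 4 members share such a start region, within 1000 bases, with a gene that points the other way: Nsdhl with Cetn2, Dhcr7 with Nadsyn1, Nr1h3 with Acp2 and Npc2 with Isca2.

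The libraries held 24513124 to 75292019 estimated counts. Foxp3, which defined the gates, ran from 909 to 1092 CPM (counts scaled to a common library size) in the 8 liver Treg libraries and from 926 to 1176 CPM in spleen Treg, against 0.681 to 2.96 CPM in liver Tconv and 1.34 to 3.43 CPM in spleen Tconv. Spleen control libraries 2 and 3 stood apart in both cell types. The summed level of 8 immediate early genes, which respond within minutes to handling or activation, was 7340.5 to 10071 CPM in all CCl4 libraries of spleen, against 1428 and 1267 CPM in these controls in Treg and 1691 and 1506 CPM in Tconv. Spleen control 1 had 7302 CPM in Treg and 9074 CPM in Tconv. Liver Treg control 1 carried 1006 CPM of 5 pancreatic acinar genes, against 4.92 and 6.03 CPM in controls 2 and 3. Liver Tconv control 1 carried 55.3 CPM of these genes, against 4.58 and 5.45 CPM in liver Tconv controls 2 and 3. Counts of calls, and the calls lost, are given below without spleen controls 2 and 3 and without liver Treg control 1. Leaving out spleen controls 2 and 3 leaves each spleen control group with 1 library, which is then assumed to vary like the other groups, so those values are weakly held. In such bulk samples, fewer cells of a type and less RNA per cell cannot be told apart.

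All 4 roles were expressed in every population. In TPM, a unit that divides by transcript length and so allows levels of different genes to be compared, the median over the 32 libraries was highest for the sterol regulator Srebf2 at 135 TPM, the LXR beta gene Nr1h2 at 133 TPM, the lysosomal cholesterol carrier Npc2 at 112 TPM and farnesyl diphosphate synthase Fdps at 106 TPM. These 4 ranges overlap, so their order is not firm: Srebf2 ran from 112 to 169 TPM and Fdps from 57.7 to 143 TPM. Among the other synthesis enzymes the median was 73.0 TPM for the sterol desaturase Sc5d, 62.8 TPM for the sterol isomerase Ebp and 59.0 TPM for Ggps1, which makes the geranylgeranyl groups for prenylation. It was lowest for lanosterol synthase Lss (9.49 TPM) and the sterol reductase Hsd17b7 (7.34 TPM). The LXR pair differed in level in every library: Nr1h3, the LXR alpha gene of macrophages and hepatocytes, had a median of 1.80 TPM and ranged from 0.246 to 4.09 TPM. The exporter Abcg1 stood at 22.3 TPM and the exporter Abca1 at 2.78 TPM.

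**Figure D1:**
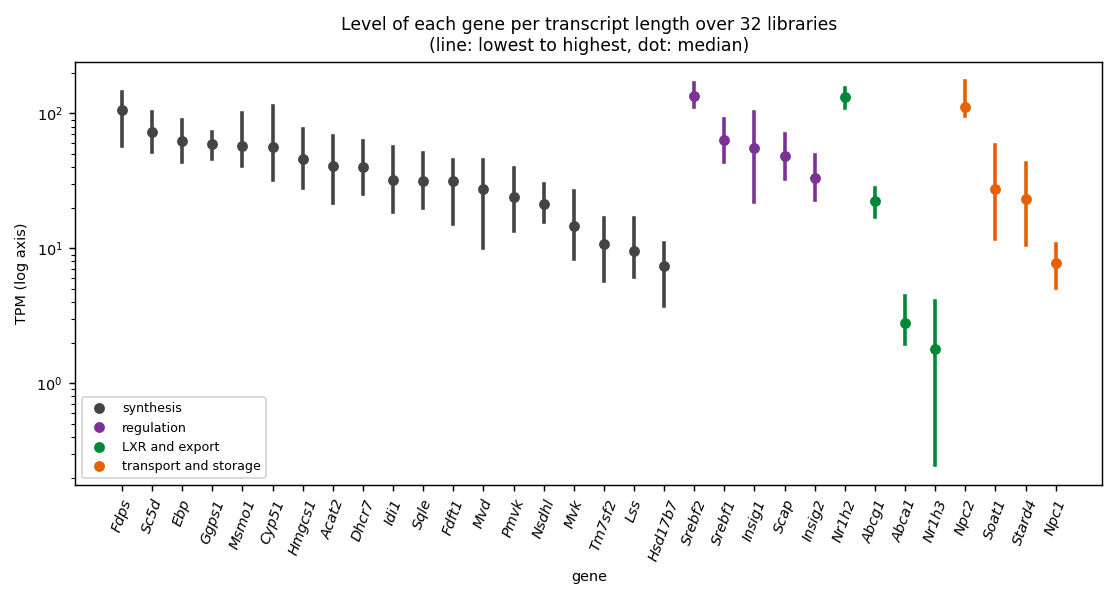
Levels of the 32 genes in deposited TPM on a log axis, grouped by role; the line runs from the lowest to the highest of the 32 libraries and the dot is the median. Srebf2, Nr1h2, Npc2 and Fdps have the highest medians and Nr1h3, at 1.80 TPM, the lowest.

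In liver Treg, 8 of the 32 genes fell after CCl4 and 0 rose, at an adjusted p under 0.05 by edgeR's quasi-likelihood test with Benjamini-Hochberg adjustment over all 17174 genes tested, which gives every adjusted p below. Of all genes tested, 14.9% were called in this comparison, 7.34% as lower and 7.58% as higher. Mevalonate kinase Mvk fell most, to 0.402 of its control level. Of the 19 synthesis members 7 fell: Acat2, Hmgcs1, Mvk, Idi1, Fdps, Sqle and Cyp51. Of the 5 regulators 1 fell, Srebf2, and of the 4 LXR and export members and the 4 transport and storage members 0 were called. The log2 fold change of the 32 members had a median of -0.14, against -0.00 over all genes, and 22 members were negative.

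The first steps of the pathway were among those that fell. Acat2 joins acetyl-CoA units, and it stood at 43.0, 40.3, 35.3, 34.1 and 26.5 CPM after CCl4 in liver Treg, against 44.1, 54.1 and 47.7 CPM in the 3 controls. Every CCl4 library lay below every control (log2 fold change -0.44, SE 0.15, adjusted p = 0.0409). Hmgcs1, the HMG-CoA synthase whose promoter is shown above, had 97.9, 131, 91.5, 104 and 98.6 CPM after CCl4, against 152, 131 and 136 CPM in controls. CCl4 library 2 was as high as control 2, so the groups overlap for Hmgcs1 (-0.42, SE 0.12, adjusted p = 0.0179).

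Mvk phosphorylates mevalonate, and its levels were 7.67, 10.8, 6.79, 6.80 and 7.47 CPM after CCl4 in liver Treg, against 15.5, 21.2 and 22.3 CPM in the controls. The groups lay far apart (log2 fold change -1.31, SE 0.18, adjusted p = 6.76e-06), with means of 7.90 ± 1.66 and 19.7 ± 3.68 CPM in CCl4 and control libraries (SD, n = 5 and 3), or 9.52 ± 1.86 and 23.6 ± 3.77 TPM. In the other populations the difference was smaller and not called. Mvk averaged 18.0 ± 5.22 CPM after CCl4 and 23.1 ± 4.63 CPM in controls in liver Tconv, 12.3 ± 1.39 and 14.4 ± 1.76 CPM in spleen Treg, and 14.0 ± 1.09 and 15.6 ± 2.23 CPM in spleen Tconv. Its neighbour Mmab, a gene chosen after its values were seen, had 8.09 ± 2.70 CPM in CCl4 and 10.5 ± 3.50 CPM in control libraries of liver Treg and was not called (-0.37, SE 0.23, adjusted p = 0.314).

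The lower level of Mvk was uneven over its transcripts. The coding transcript Mvk-206 averaged 2.45 ± 0.544 TPM in CCl4 and 7.35 ± 0.609 TPM in control libraries of liver Treg, and the groups did not overlap. A second coding transcript, Mvk-201, averaged 4.15 ± 1.57 TPM after CCl4 and 7.46 ± 1.74 TPM in controls. Its groups overlapped, with CCl4 library 2 at 6.74 TPM and control 1 at 5.45 TPM, and it held 43.6% and 31.5% of the gene's TPM. The groups also overlapped for coding Mvk-205, at 0.805 ± 0.476 TPM after CCl4 and 1.10 ± 1.27 TPM in controls. Mvk-204, annotated as holding a retained intron, averaged 0.909 ± 0.461 TPM after CCl4 and 3.81 ± 1.59 TPM in controls. These single transcripts are estimates by kallisto from shared reads and were not tested. Strand use in counting was not given by the sources, and 9 members share exon bases with a gene on the opposite strand, among them Hmgcs1, Idi1 and Cyp51, so that reads of such pairs cannot be told apart there. Mvk, Sqle, Acat2 and Srebf2 share none.

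Idi1 and Fdps handle the isoprene units that follow. Idi1, the isopentenyl diphosphate isomerase, had 71.9, 70.3, 61.7, 68.8 and 59.2 CPM after CCl4, against 94.5, 85.3 and 88.4 CPM in controls (log2 fold change -0.43, SE 0.14, adjusted p = 0.0415). Fdps, which makes farnesyl diphosphate for sterols and for prenylation, had 52.3, 55.1, 47.1, 43.9 and 39.2 CPM after CCl4, against 95.4, 75.9 and 63.9 CPM in controls (-0.72, SE 0.12, adjusted p = 4.31e-05). In both genes every CCl4 library lay below every control. The main coding transcript Fdps-201 held 90.8% and 88.8% of the gene's TPM in CCl4 and control libraries. A predicted gene that shares 1124 exon bases with Fdps on the same strand, Gm43738, was listed at 0.0702 and 0.0205 TPM on average.

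Sqle and Cyp51 act on squalene and lanosterol. Squalene epoxidase Sqle had 40.7, 35.7, 33.8, 38.5 and 36.7 CPM after CCl4, against 42.8, 58.1 and 50.5 CPM in controls (log2 fold change -0.44, SE 0.11, adjusted p = 0.00601). The lanosterol demethylase Cyp51 had 148, 202, 137, 156 and 148 CPM after CCl4, against 223, 214 and 193 CPM in controls (-0.41, SE 0.14, adjusted p = 0.0492). For Sqle the groups did not overlap, while for Cyp51 CCl4 library 2 lay above control 3. Within Cyp51 the coding transcript Cyp51-201 averaged 60.8 ± 9.67 TPM after CCl4 and 79.3 ± 1.63 TPM in controls, and the retained-intron transcript Cyp51-204 averaged 25.9 ± 3.70 and 25.6 ± 1.75 TPM.

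Srebf2, the regulator of the pathway, had 280.2, 322, 275, 264 and 289 CPM in CCl4 libraries of liver Treg, against 381, 368 and 351 CPM in controls. All 5 CCl4 libraries lay below all 3 controls, though the fall was small (log2 fold change -0.36, SE 0.07, adjusted p = 0.000387). Coding transcripts Srebf2-201 and Srebf2-203 averaged 37.4 ± 2.30 and 35.3 ± 5.85 TPM after CCl4, against 44.7 ± 5.57 and 50.9 ± 7.58 TPM in controls. The retained-intron transcripts Srebf2-205 and Srebf2-207 averaged 45.45 ± 4.30 and 14.7 ± 1.68 TPM after CCl4, against 49.3 ± 6.405 and 15.0 ± 4.655 TPM in controls. Srebf2-205 alone held 33.5% and 30.2% of the gene's TPM, and gene levels of Srebf2 throughout include such transcripts. Its partners did not pass the test: Scap stood at -0.00 (adjusted p = 0.99), Insig1 at -0.20 (0.249), Insig2 at 0.34 (0.106) and Srebf1, the gene of the fatty acid regulator SREBP-1, at 0.13 (0.481).

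Of the other 12 synthesis members 0 were called, with log2 fold changes from -0.25 for Pmvk to 0.41 for Hsd17b7. Mvd, which decarboxylates mevalonate diphosphate just after the Mvk and Pmvk steps, stood at -0.24 (adjusted p = 0.256), and Dhcr7, a reductase of the last step, at 0.01 (0.974). The storage enzyme Soat1, which esterifies cholesterol, was at 0.31 (0.192) and lay higher in every CCl4 library than in any control, as did Insig2. Lower in every CCl4 library than in any control without being called was Nr1h2 (-0.16, adjusted p = 0.193). Counted over the members, 7 did not overlap downward and 2 upward, against 9.03% and 10.1% of all genes. The exporters Abca1 and Abcg1 stood at 0.02 and 0.03 (adjusted p = 0.978 and 0.906). Among the transport genes Stard4 was at -0.06 (0.827), Npc1 at -0.24 (0.286) and Npc2 at -0.20 (0.209), and the sparse Nr1h3 was at 0.61 (SE 0.56, adjusted p = 0.551).

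**Figure D2:**
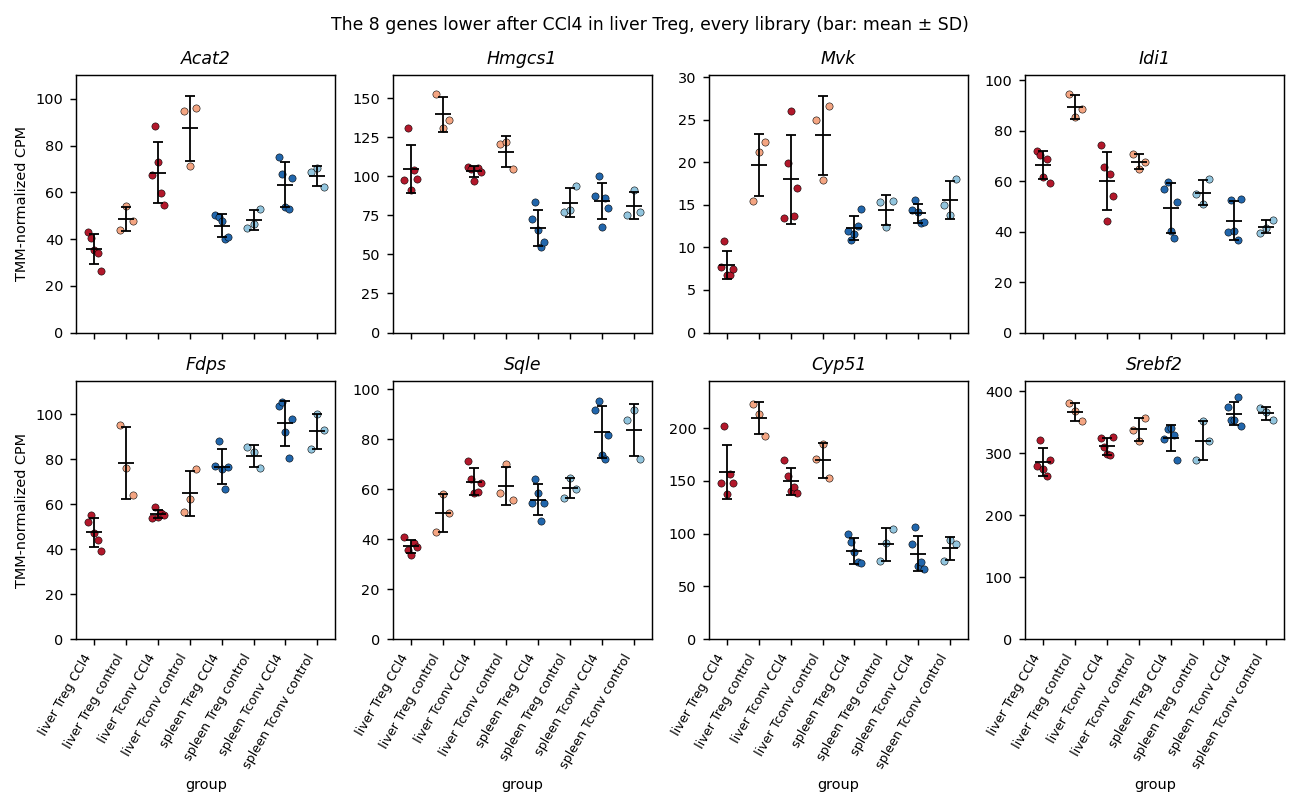
The 8 genes that fell after CCl4 in liver Treg, in TMM-normalized CPM on linear axes that start at 0, for every library of the 8 groups; bars and whiskers give the mean and SD of each group. In liver Treg the Mvk libraries stand at 6.79 to 10.8 CPM after CCl4 and at 15.5 to 22.3 CPM in controls, while liver Tconv averages 18.0 ± 5.22 and 23.1 ± 4.63 CPM.

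The summed level of the 19 synthesis members was 786 ± 56.6 TPM in CCl4 and 945 ± 20.3 TPM in control libraries of liver Treg (SD, n = 5 and 3). The same sum was 702 ± 43.9 TPM after CCl4 and 725 ± 7.32 TPM in controls in liver Tconv, 742 ± 57.0 and 793 ± 25.0 TPM in spleen Treg, and 743 ± 44.2 and 754 ± 64.6 TPM in spleen Tconv. In liver Treg, CCl4 libraries 3 and 5 were the lowest of their group for 8 synthesis members each, and CCl4 library 2 was the highest for 8. Not all 8 falls were equally firm. Mvk, Fdps and Srebf2 passed the test under all 15 alternatives run, Hmgcs1 and Sqle under 14 each. Idi1 passed under 7, Cyp51 under 6 and Acat2 under 5, with highest adjusted p of 0.147, 0.172 and 0.197. The number of members called was 4 without control 1 and 4 without control 2 in place of 8, and 5 without control 3 or CCl4 library 3, 4 or 5. Hmgcs1 was not called without control 1 (adjusted p = 0.111), the liver Treg library rich in acinar transcripts, nor Sqle without control 2 (0.0859).

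Marker groups were read in the same libraries. The 4 T cell genes summed to 2983 to 3238 CPM in CCl4 and to 2498.5 to 2835 CPM in control libraries of liver Treg, with Trac called as higher. The 3 Treg genes summed to 2406 to 2614 CPM against 2115 to 2259 CPM, with 0 of 3 called. These sums did not overlap between the groups. Immediate early genes summed to 8244 to 10231 CPM in CCl4 and to 6499.9 to 7581 CPM in control libraries of liver Treg, with 0 of 8 called and no overlap of the sums. The 4 endothelial markers summed to 98.1 to 123 CPM against 198 to 214 CPM, with Pecam1, which T cells also express, and Stab2 lower. Hepatocyte markers ran from 5.75 to 194 CPM in CCl4 and from 25.7 to 57.1 CPM in control libraries, with 0 of 8 called, and 10 cell cycle genes from 894 to 1123 CPM against 1031 to 1152 CPM, with Mcm2 and Top2a called. The part of these groups in the lower sterol genes was not tested.

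In the other populations 0 of the 32 genes were called after CCl4. Of all genes tested, 0.326% were called in liver Tconv, 1.18% in spleen Treg (0.757% higher and 0.419% lower) and 1.07% in spleen Tconv, far fewer than in liver Treg. At an unadjusted p under 0.05 stood 3 of the 32 members in liver Tconv, 4 in spleen Treg and 5 in spleen Tconv. The same threshold was passed by 2222 of all 17174 genes tested in liver Tconv, 2331 in spleen Treg and 2507 in spleen Tconv. The counts of members are to be read against that background. Liver Tconv had the smallest adjusted p at Mvd (log2 fold change -0.34, adjusted p = 0.28), and 0 members had groups that did not overlap, against 6.66% of all genes (3.12% higher and 3.53% lower). In spleen Treg, Npc1 and Tm7sf2 lay lower and Abcg1 higher without overlap, against 4.83% and 6.03% of all genes. In spleen Tconv these were Nr1h2 and Soat1 on the lower side and Abca1 on the higher, 3 of 32 against 8.80% of all genes (4.70% lower and 4.10% higher). The median over the members was -0.05 in liver Tconv, 0.00 in spleen Treg and 0.03 in spleen Tconv.

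Insig1, which retains SREBP proteins and is itself an SREBP target, came closest in spleen. It had 60.6, 62.4, 50.2, 55.8 and 44.1 CPM after CCl4 in spleen Treg, against 45.7, 41.5 and 38.6 CPM in controls (log2 fold change 0.38, SE 0.11, adjusted p = 0.0969). In spleen Tconv it had 49.3, 57.4, 56.6, 52.0 and 52.9 CPM after CCl4, against 49.8, 39.8 and 34.5 CPM in controls (0.37, SE 0.11, adjusted p = 0.0904). The groups overlapped in both cell types. DESeq2 called Insig1 in both, with an adjusted p of 0.0219 in Treg and of 0.025 in Tconv. Leaving out CCl4 library 5 gave an adjusted p of 0.041 in spleen Treg, and leaving out control 1 gave 0.00873 in spleen Tconv. With spleen control 1 as the only control library left in each cell type, Insig1 stood at 0.26 on the log2 scale in Treg (adjusted p = 0.789). In Tconv it then stood at 0.10 (adjusted p = 1).

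**Figure D3:**
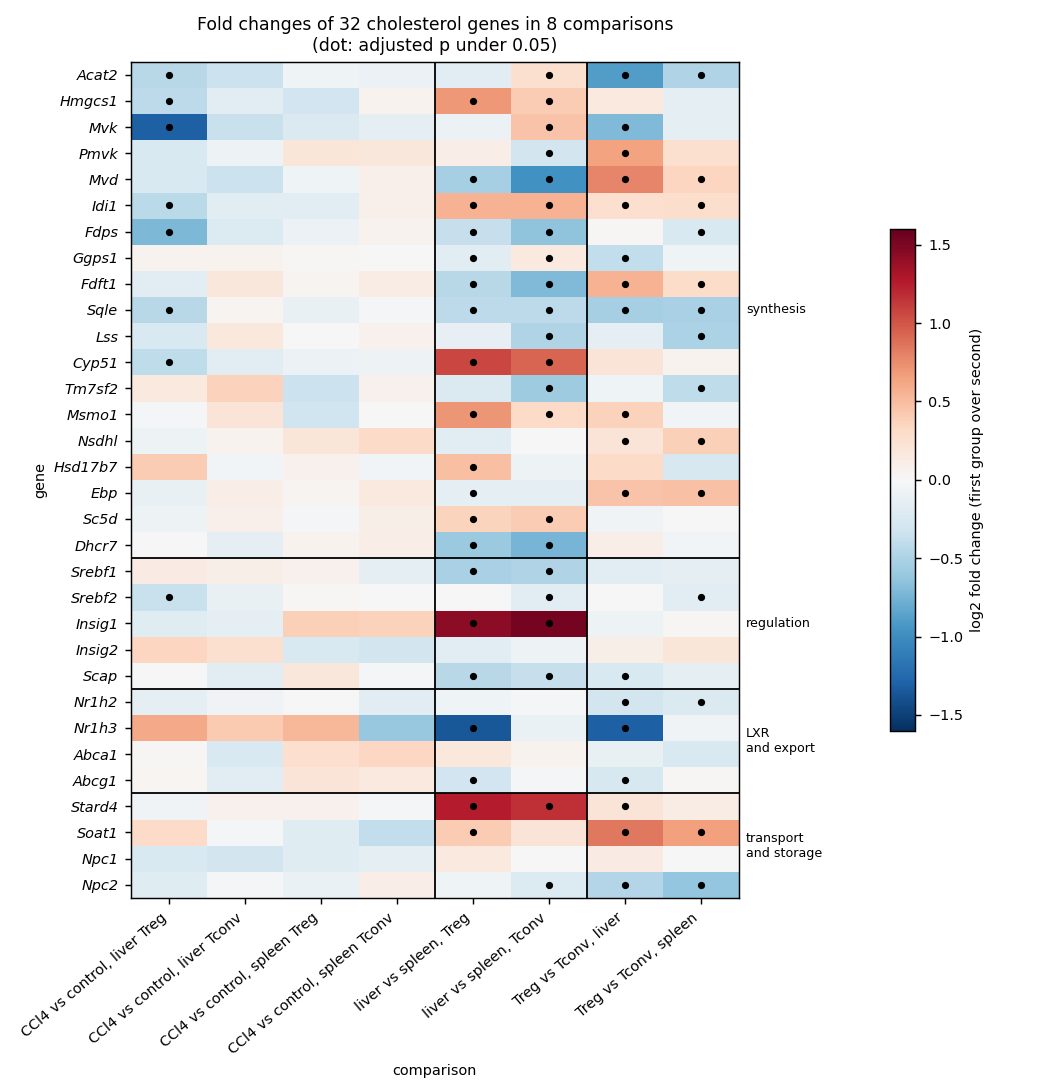
Log2 fold changes of the 32 genes (rows, by role) in the 8 comparisons (columns), with CCl4 over control, liver over spleen and Treg over Tconv; a dot marks an adjusted p under 0.05. The 8 dots among the 4 CCl4 columns all stand in liver Treg, while the tissue and cell type columns hold between 14 and 22 dots each.

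Whether the CCl4 effect itself differed between populations was tested next. Between liver Treg and liver Tconv it differed for 1 member, Mvk (difference of log2 fold changes -0.95, SE 0.26, adjusted p = 0.0381), in a comparison that called 3.65% of all genes (1.88% positive and 1.76% negative). Fdps (-0.50, adjusted p = 0.0938) and Sqle (-0.48, adjusted p = 0.0946) missed the threshold. The Mvk call held under 12 of 23 alternatives, with adjusted p up to 0.15. It was lost when liver Treg control 2 or 3, liver Treg CCl4 library 3, 4 or 5, liver Tconv control 1 or 2, or liver Tconv CCl4 library 2 or 3 was left out.

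Between liver Treg and spleen Treg the effect differed for 4 members, all more negative in liver, where 5.49% of all genes were called (2.03% positive and 3.46% negative). They were Mvk (-1.08, SE 0.27, adjusted p = 0.0123), Fdps (-0.63, SE 0.17, adjusted p = 0.0201), Srebf2 (-0.38, SE 0.10, adjusted p = 0.018) and Insig1 (-0.58, SE 0.16, adjusted p = 0.0246). With 1 spleen Treg control library left, Srebf2 alone was called (-0.53, adjusted p = 0.0227). Without liver Treg control 1 the calls of Fdps (adjusted p = 0.105) and Srebf2 (adjusted p = 0.0551) were lost, and 2 members were called without spleen Treg control 3. Between spleen Treg and spleen Tconv edgeR called 0 of all 17174 genes, 736 of which had an unadjusted p under 0.05, 1 of them a member.

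Many of these genes differed between liver and spleen. Averaged over both treatments, 20 of the 32 members differed between liver and spleen in Treg, 9 higher and 11 lower in liver, and 22 in Tconv, 10 higher and 12 lower. The background was high: 60.6% of all genes were called in Treg (30.1% higher and 30.5% lower) and 55.0% in Tconv (27.2% and 27.7%). On the average of both treatments, 7 members were higher in liver in both cell types (Hmgcs1, Idi1, Cyp51, Msmo1, Sc5d, Insig1 and Stard4). Another 7 were lower in both (Mvd, Fdps, Fdft1, Sqle, Dhcr7, Srebf1 and Scap), so synthesis enzymes stood on both sides. The share that was higher depended on the scaling. Among genes of at least 5 CPM, 13 members were higher and 8 lower in Treg, and 11 and 9 in Tconv. With that filter log2 fold changes moved upward by a median of 0.16 in Treg and 0.13 in Tconv. The split of all genes under the filter is not given here, so the tilt cannot be read as particular to the members.

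Insig1 differed most. Over 8 libraries each, its lowest, median and highest level was 106, 132 and 148 CPM in liver Treg, against 38.6, 47.9 and 62.4 CPM in spleen Treg (log2 fold change 1.43, SE 0.08, adjusted p = 6.65e-15). In liver Tconv it was 117, 136 and 151 CPM, against 34.5, 50.9 and 57.4 CPM in spleen Tconv (1.53, SE 0.08, adjusted p = 1.73e-15). No liver library came near a spleen library. Insig2, the second gene of the INSIG pair, was not called in either cell type (-0.17 and -0.08, adjusted p = 0.133 and 0.534).

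Stard4, a cytosolic sterol carrier, followed. Its lowest, median and highest level was 42.0, 49.4 and 54.6 CPM in liver Treg, against 17.1, 20.8 and 25.5 CPM in spleen Treg (log2 fold change 1.25, SE 0.08, adjusted p = 3.49e-13). In liver Tconv it was 36.5, 41.8 and 51.2 CPM, against 17.3, 18.6 and 21.7 CPM in spleen Tconv (1.17, SE 0.08, adjusted p = 1.71e-12). Every liver library lay above every spleen library of the same cell type.

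Cyp51 was the synthesis enzyme with the largest excess in liver. It ran over 137, 175 and 223 CPM in liver Treg (lowest, median, highest), against 71.9, 86.6 and 105 CPM in spleen Treg (log2 fold change 1.07, SE 0.10, adjusted p = 4.41e-10). In liver Tconv it ran over 138, 154 and 185 CPM, against 66.8, 81.7 and 106 CPM in spleen Tconv (0.93, SE 0.10, adjusted p = 7.64e-09). Dhcr7 lay on the other side, with 38.8, 42.8 and 46.6 CPM in liver Treg against 56.4, 64.6 and 80.3 CPM in spleen Treg (-0.60, SE 0.06, adjusted p = 2.82e-09). In Tconv it had 35.6, 39.1 and 44.0 CPM in liver against 62.5, 66.7 and 75.8 CPM in spleen (-0.74, SE 0.06, adjusted p = 6.13e-11). For both genes the tissues did not overlap.

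The other synthesis members that were higher in liver were Msmo1 (log2 fold change 0.71 in Treg and 0.31 in Tconv), the methylsterol oxidase that acts soon after Cyp51, Hmgcs1 (0.70 and 0.40), Idi1 (0.56 and 0.56) and Sc5d (0.35 and 0.41). Those lower in liver were Mvd (-0.53 and -0.97), squalene synthase Fdft1 (-0.44 and -0.71), Fdps (-0.37 and -0.65) and Sqle (-0.42 and -0.42). For Fdps in Treg the control libraries overlapped, at 63.9 to 95.4 CPM in liver and 76.1 to 85.6 CPM in spleen. After CCl4 they did not, at 39.2 to 55.1 CPM and 66.8 to 88.2 CPM. Among the regulators Srebf1 (-0.52 and -0.48) and Scap (-0.45 and -0.37) were lower. Their adjusted p ran up to 0.00269. Called in Treg alone were Hsd17b7 (0.48), Soat1 (0.40), Ebp (-0.16), Abcg1 (-0.31) and Nr1h3 (-1.36). Called in Tconv alone were Mvk (0.46), Acat2 (0.25), Pmvk (-0.29), Lss (-0.48), the sterol reductase Tm7sf2 (-0.57), Srebf2 (-0.17) and Npc2 (-0.22). In Treg, Mvk changed side with treatment. It averaged 19.7 CPM in liver against 14.4 CPM in spleen in controls, and 7.90 against 12.3 CPM after CCl4. Ggps1 was lower in liver Treg (-0.18) and higher in liver Tconv (0.15).

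The call of Nr1h3 rests on few reads. It had 0.0241 to 1.22 CPM in liver Treg and 0.892 to 3.07 CPM in spleen Treg, and was not called without the 4 spleen control libraries (adjusted p = 0.112). Ebp was called in Treg under 12 of 24 alternatives, Acat2 in Tconv under 12 and Ggps1 in Tconv under 8. Without the 4 spleen control libraries 18 members were called in Treg, 9 in each direction, with Ggps1 (adjusted p = 0.118), Ebp (0.0837) and Nr1h3 lost and Nsdhl gained (-0.29, adjusted p = 0.0266). In Tconv 18 were then called, 8 higher and 10 lower, with Acat2 (adjusted p = 0.213), Pmvk (0.116), Ggps1 (0.242) and Tm7sf2 (0.0539) lost. Within the control and within the CCl4 libraries, liver and spleen did not overlap for 6 members higher in liver Treg and 5 lower, against 12.9% and 16.1% of all genes. In Tconv these were 4 and 6 members, against 11.5% and 14.2%.

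**Figure D4:**
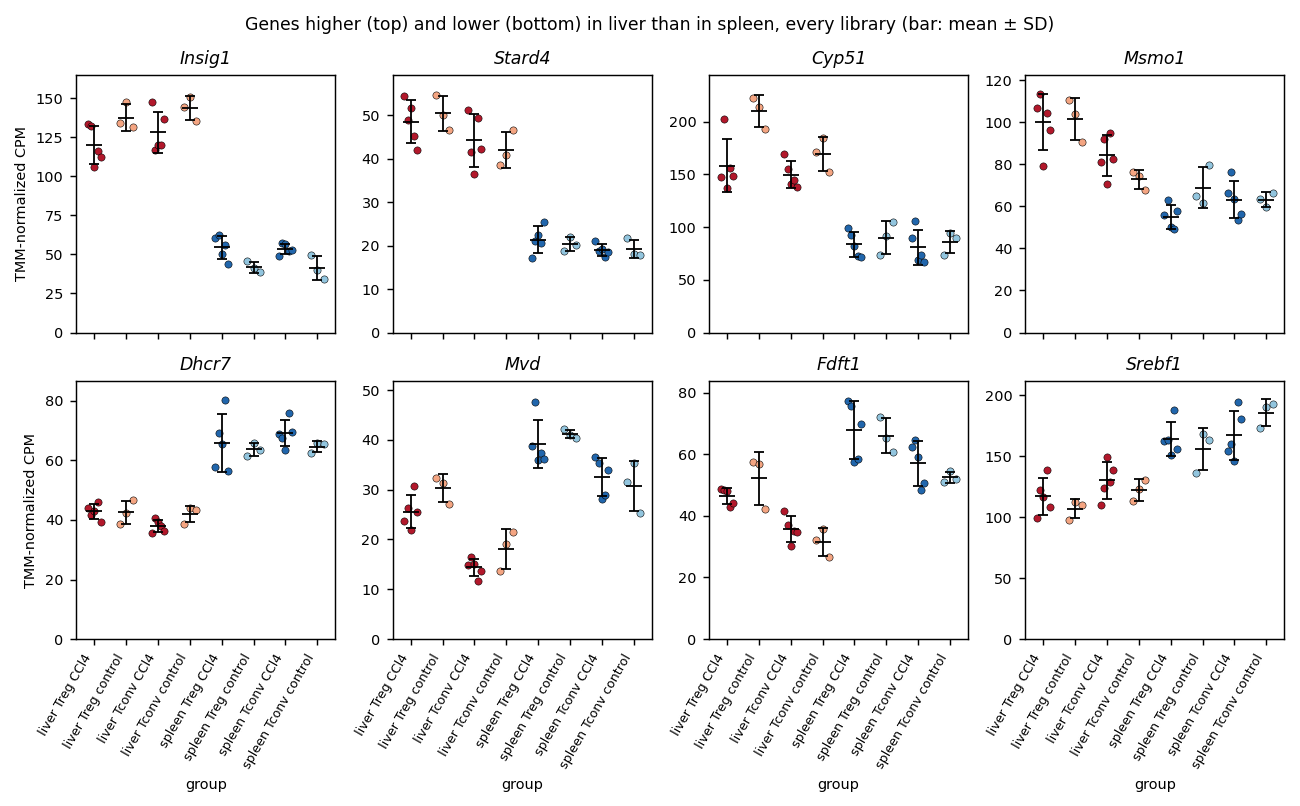
The plot shows 4 genes higher in liver (Insig1, Stard4, Cyp51 and Msmo1, upper row) and others lower in liver (Dhcr7, Mvd, Fdft1 and Srebf1, lower row), in TMM-normalized CPM for every library of the 8 groups, with mean and SD. Insig1 stands at 106 to 151 CPM in all liver libraries and at 34.5 to 62.4 CPM in all spleen libraries, treated or not.

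Hepatocytes make cholesterol, and their transcripts were present in the liver sorts. The 8 hepatocyte markers summed to 5.75 to 266 CPM in liver libraries and to at most 1.01 CPM in spleen libraries, and all 8 were higher in liver in both cell types. Of 10 cell cycle genes, 8 were higher in liver in Treg and 9 in Tconv, with sums of 598 to 1152 CPM in liver and 411 to 701 CPM in spleen libraries. The 13 myeloid markers summed to 6.09 to 39.1 CPM in liver Treg and 18.3 to 121 CPM in spleen Treg, with 1 higher and 8 lower in liver, and to 8.93 to 36.1 CPM in liver Tconv and 11.0 to 44.6 CPM in spleen Tconv, with 2 higher and 6 lower. Nr1h3, a gene of macrophages and hepatocytes, was called as lower in liver in Treg and not in Tconv. The part of these groups in the tissue differences was not tested.

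The difference between liver and spleen was itself larger or smaller in Treg than in Tconv for 6 members, where 19.3% of all genes were called (6.99% positive and 12.3% negative). It was more positive in Treg for Mvd (difference of log2 fold changes 0.44, SE 0.14, adjusted p = 0.0219) and Msmo1 (0.40, SE 0.12, adjusted p = 0.0152). It was more negative for Ggps1 (-0.33, SE 0.09, adjusted p = 0.0112), Mvk (-0.56, SE 0.19, adjusted p = 0.0342), Abcg1 (-0.28, SE 0.10, adjusted p = 0.044) and Acat2 (-0.41, SE 0.15, adjusted p = 0.0475). Without the 4 spleen control libraries none of these was called and 1 other member was, Srebf2 (0.27, adjusted p = 0.0463). Without liver Treg control 1 the calls of Acat2, Mvk and Abcg1 were lost (adjusted p = 0.0912, 0.0777 and 0.102). The count was 2 without liver Tconv control 1, 2 without spleen Tconv control 2 and 3 without spleen Treg control 3. As both treatments are averaged, the Mvk value includes its fall after CCl4 in liver Treg.

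Treg and Tconv of the same tissue also differed. In liver 18 members were called, 9 higher and 9 lower in Treg, where 51.8% of all genes were called (24.7% higher and 27.1% lower). In spleen 14 were called, 6 higher and 8 lower, where 39.7% of all genes were called (19.4% higher and 20.2% lower). Among genes of at least 5 CPM the liver split was 13 higher and 7 lower, with log2 fold changes moved upward by a median of 0.09. The split of all genes under that filter is not given here. Soat1, Mvd, Fdft1, Ebp, Idi1 and the sterol dehydrogenase Nsdhl were higher in Treg in both tissues. Acat2, Sqle, Npc2 and Nr1h2 were lower in Treg in both. In neither tissue were 10 members called, Insig1 and Cyp51 among them. Of the calls in both tissues, not all held under every alternative: Idi1 held under 14 of 24 alternatives in spleen and Nsdhl under 13 of 23 in liver.

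In liver the smallest adjusted p belonged to Acat2, Mvd and Soat1. Acat2 had a lowest, median and highest level of 26.5, 41.7 and 54.1 CPM in liver Treg, against 54.4, 71.9 and 96.1 CPM in liver Tconv (log2 fold change -0.89, SE 0.10, adjusted p = 2.92e-08). Mvd had 21.9, 26.6 and 32.4 CPM in Treg, against 11.7, 15.0 and 21.5 CPM in Tconv (0.78, SE 0.10, adjusted p = 8.02e-08). Soat1, which stores cholesterol as ester, had 50.1, 75.8 and 84.0 CPM in Treg, against 28.8, 35.8 and 52.7 CPM in Tconv (0.84, SE 0.11, adjusted p = 1.87e-07). All Treg libraries lay below all Tconv libraries for Acat2 and above them for Mvd, while Soat1 overlapped.

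In spleen the smallest adjusted p belonged to other members. Npc2, which moves cholesterol out of lysosomes, had 204, 217 and 239 CPM in spleen Treg, against 288, 349 and 397 CPM in spleen Tconv (log2 fold change -0.62, SE 0.07, adjusted p = 3.27e-08). Ebp had 70.2, 79.3 and 87.2 CPM in Treg, against 52.8, 57.3 and 69.2 CPM in Tconv (0.47, SE 0.07, adjusted p = 8.28e-07). Sqle had 47.4, 57.5 and 64.5 CPM in Treg, against 72.1, 84.7 and 95.4 CPM in Tconv (-0.52, SE 0.08, adjusted p = 3.07e-06). For these 3 genes the cell types did not overlap in spleen. In liver the same genes stood at -0.47, 0.45 and -0.53.

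Some members were called in a single tissue, which does not show that the tissues differ. In liver alone these were Pmvk (0.64), Msmo1 (0.37), Stard4 (0.20), Scap (-0.24), Abcg1 (-0.26), Ggps1 (-0.40), Mvk (-0.71) and Nr1h3 (-1.31). In spleen alone these were Srebf2 (-0.18), Fdps (-0.25), Tm7sf2 (-0.41) and Lss (-0.51). The liver value of Mvk joins unlike treatments. Treg against Tconv averaged 7.90 against 18.0 CPM after CCl4, but 19.7 against 23.1 CPM in controls, where the libraries overlapped. Stard4 held in liver under 11 of 23 alternatives. Without liver Treg control 1 the liver calls of Idi1, Nsdhl and Stard4 were lost (adjusted p = 0.0662, 0.0602 and 0.127). Without the 4 spleen control libraries 9 members were called in spleen, 4 higher and 5 lower, and Mvd (adjusted p = 0.0974), Idi1 (0.179), Fdps (0.47), Lss (0.103) and Tm7sf2 (0.549) were not called. Within control and within CCl4 libraries the cell types did not overlap in liver for 2 members higher and 3 lower, against 10.7% and 12.8% of all genes, and in spleen for 3 and 5, against 10.1% and 9.54%. Myeloid markers summed to 6.09 to 39.1 CPM in liver Treg and 8.93 to 36.1 CPM in liver Tconv, with Clec4f and Cd5l lower. Of 8 hepatocyte markers 6 were lower in liver Treg than in liver Tconv, and of 10 cell cycle genes 7 were higher and 1 lower in liver Treg and 8 higher in spleen Treg. Their part in these differences was not tested.

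**Figure D5:**
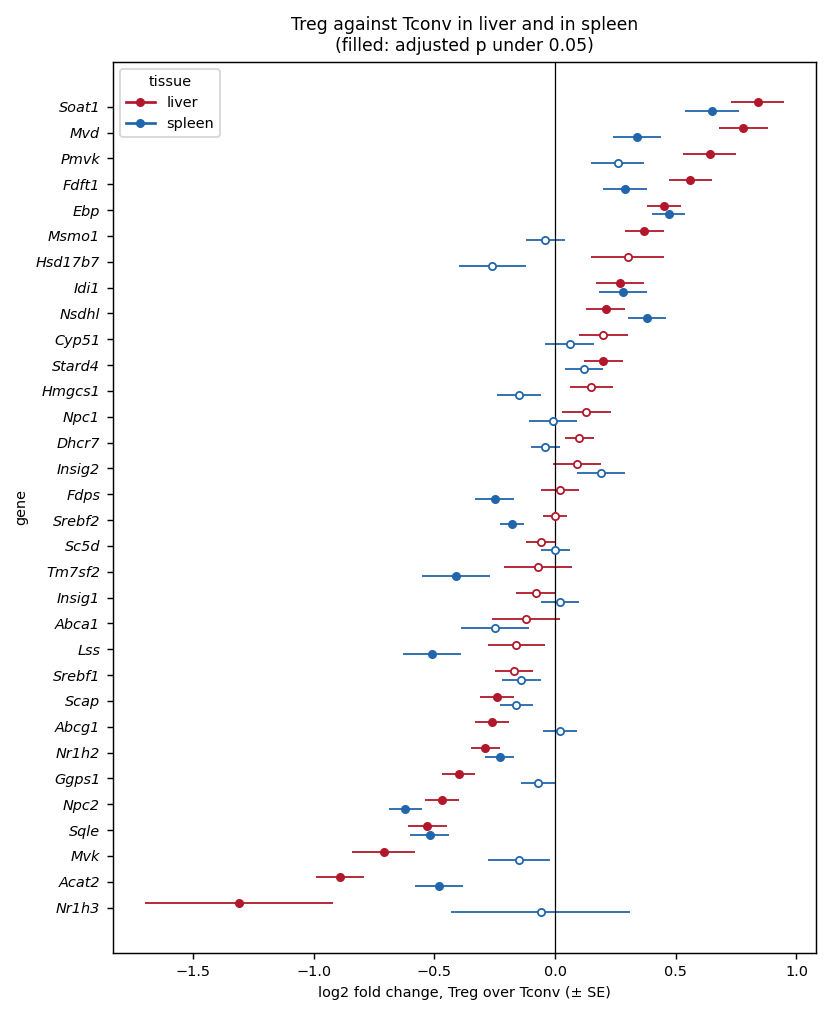
Log2 fold change of Treg over Tconv for the 32 genes, with 1 SE to each side, in liver (red) and spleen (blue); filled symbols mark an adjusted p under 0.05. In liver Soat1 (0.84) and Mvd (0.78) lie furthest above 0 and Nr1h3 (-1.31) and Acat2 (-0.89) furthest below, and in spleen Soat1 (0.65) and Ebp (0.47) above and Npc2 (-0.62) and Sqle (-0.52) below.

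Genes around the pathway were read from a second list of 29 sterol genes and from 13 fatty acid synthesis genes, none of them members. In liver Treg after CCl4, 5 of the 28 sterol genes tested were called (17.9%), against 14.9% of all genes. By direction these were 7.14% higher and 10.7% lower, against 7.58% and 7.34% of all genes. Lipa, the lysosomal acid lipase that frees cholesterol from its esters, averaged 65.7 ± 11.1 CPM in CCl4 and 119 ± 11.0 CPM in control libraries (SD over 5 and 3 libraries), a log2 fold change of -0.86 (SE 0.09, adjusted p = 1.07e-07). Gramd1a, an endoplasmic reticulum protein that receives cholesterol from the plasma membrane (-0.26, adjusted p = 0.0174), and the endosomal sterol carrier Stard3 (-0.31, adjusted p = 0.0411) also fell. Nceh1, a hydrolase of cholesterol esters, rose to 41.3 ± 3.53 CPM in CCl4 libraries, against 25.7 ± 4.34 CPM in controls (0.69, SE 0.12, adjusted p = 0.000163). Lpcat3, a phospholipid remodelling enzyme and LXR target, rose to 49.9 ± 7.61 CPM, against 35.9 ± 2.71 CPM (0.47, SE 0.11, adjusted p = 0.0025). Of the 13 fatty acid genes 1 was called (7.69%), a share below that of all genes. This was the acyl-CoA synthetase Acsl3, at 12.7 ± 2.37 CPM in CCl4 and 26.5 ± 3.30 CPM in control libraries (-1.06, SE 0.18, adjusted p = 0.000133). In the other 3 populations 0 genes of either list were called after CCl4. Of all genes 0.326% were called in liver Tconv, 1.18% in spleen Treg and 1.07% in spleen Tconv.

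The CCl4 effect on Lpcat3 was more positive in liver Treg than in liver Tconv (difference 0.77, adjusted p = 0.00211) and than in spleen Treg (0.64, adjusted p = 0.00859). That on Lipa was more negative (-0.53, adjusted p = 0.0199, and -0.66, adjusted p = 0.00317). Between liver and spleen, 20 of the 28 further sterol genes were called in Treg, 6 higher and 14 lower in liver, and 18 in Tconv, 7 higher and 11 lower. These were 71.4% and 64.3%, against 60.6% of all genes in Treg (30.1% higher and 30.5% lower) and 55.0% in Tconv (27.2% and 27.7%). Smallest in adjusted p among the higher were Gramd1c (1.61) and the lipoprotein receptor Lrp8 (0.81) in Treg, with Gramd1b (0.80) and Lrp8 (0.82) in Tconv. Among the lower were Lipa (-0.72 and -0.67) and the farnesyltransferase subunit Fntb (-1.07 and -0.88). Of the 13 fatty acid genes 10 (76.9%) were called in each cell type, against the same shares of all genes, with 7 higher in Treg and 6 in Tconv. Elovl6 stood at 1.35 and 1.59 and fatty acid synthase Fasn at -0.51 and -0.52. Between Treg and Tconv, 15 sterol genes were called in liver (4 higher and 11 lower in Treg) and 11 in spleen (2 and 9). In either direction these were 53.6% and 39.3%, close to the 51.8% and 39.7% of all genes. By direction the shares were not close: 14.3% were higher and 39.3% lower in liver, and 7.14% and 32.1% in spleen. Of all genes 24.7% were higher and 27.1% lower in liver, and 19.4% and 20.2% in spleen. Gramd1a stood at -0.91 and -1.38, and Mylip, which marks lipoprotein receptors for degradation, at -1.78 and -1.01. Of the 13 fatty acid genes 6 (46.2%) were called in liver, 2 higher and 4 lower in Treg. In spleen 9 (69.2%) were called, 3 higher and 6 lower, against the same shares of all genes.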

How the data were processed

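RNA was taken from T cells sorted into Trizol, and libraries were made with the Clontech Ultra Low v4 and NexteraXT kits, per the labels' protocols. Reads were demultiplexed with bcl2fastq 2.19 and quantified with kallisto 0.44.0, and DESeq2 and build GRCm38.p6 are also named, per the submitters' processing notes. Annotation release and use of strand: not given in the sources used here. The authors deposited estimated counts and TPM for 118489 transcripts per library, per the file headers. Here 116816 of them (98.6%) were matched to GENCODE M21 genes and summed per gene. The 1673 unmatched transcripts held 0.662% to 0.799% of the counts.

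Summed estimated counts were rounded and scaled by TMM (factors 0.923 to 1.065). Genes too low for filterByExpr were dropped. edgeR 4.0.16 in R 4.3.3 fitted a quasi-likelihood model of 8 groups with 24 residual degrees of freedom, and p was adjusted over 17174 genes and called under 0.05. SE is the log2 fold change divided by the root of F. Tissue and cell type comparisons average both treatments. CPM are TMM-normalized values computed here. TPM were summed from the deposited values. The model was tested on simulated data. Alternatives used DESeq2 1.42.0 and limma 3.58.1 (voom), DESeq2 size factors, other filters, the compared groups alone, replicate blocks and left-out libraries. CCl4 against control was blocked by sample number, the other comparisons by treatment and sample number. Python 3.11.15 drew the figures.

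The members, the gene lists and the comparisons were chosen with earlier results of these data known. All members are accounted for. Values per library are given for members called after CCl4, lowest, median and highest for the 3 smallest p of each tissue or cell type comparison, and for further lists up to 3 genes per direction. The labels do not say that libraries come from separate mice, so p-values measure the spread between these libraries, which may be technical. No library repeats another among 52 pairs compared within groups.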

Additional observations from a re-analysis of the deposited data

Results flagged for a closer look

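In 5 of the 128 groups of 5 CCl4 libraries examined, 1 library stood far from the other 4, about as often as chance gives (about 1 in 20 groups). Mvk was at 10.8 CPM in liver Treg CCl4 library 2, against 6.79 to 7.67 CPM in the others. Lss was at 29.7 CPM in the same library, against 18.0 to 21.2 CPM. Mvd was at 47.5 CPM in spleen Treg CCl4 library 2, against 35.9 to 38.7 CPM. Ebp was at 87.2 CPM in spleen Treg CCl4 library 4, against 77.3 to 79.8 CPM. Insig2 was at 35.3 CPM in liver Tconv CCl4 library 1, against 30.6 to 31.5 CPM.

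The difference of the CCl4 effect passed edgeR's test for Mvk between liver Treg and liver Tconv (-0.95 in log2, adjusted p = 0.0381). Between liver Treg and spleen Treg it passed for Mvk (-1.08, adjusted p = 0.0123), Fdps (-0.63, adjusted p = 0.0201), Srebf2 (-0.38, adjusted p = 0.018) and Insig1 (-0.58, adjusted p = 0.0246). The difference between liver and spleen was more positive in Treg than in Tconv for Mvd (0.44, adjusted p = 0.0219) and Msmo1 (0.40, adjusted p = 0.0152). It was more negative in Treg for Acat2 (-0.41, adjusted p = 0.0475), Mvk (-0.56, adjusted p = 0.0342), Ggps1 (-0.33, adjusted p = 0.0112) and Abcg1 (-0.28, adjusted p = 0.044).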

How the results depend on the processing

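In liver Treg after CCl4, the count of members called was 5 in place of 8 with no filter on low counts. DESeq2 called 1 in spleen Treg and 1 in spleen Tconv, in place of 0. Between the CCl4 effects of liver Treg and liver Tconv, 0 were called with no filter or from the compared groups alone and 3 with a minimum mean of 5 CPM or with DESeq2, in place of 1. Without the 4 spleen control libraries numbered 2 and 3, which leaves 1 control per spleen group, the count was 9 in place of 14 for Treg against Tconv in spleen, 1 in place of 4 for the CCl4 effect of liver Treg against spleen Treg, and 1 in place of 6 for the liver-spleen difference between cell types. At a mean of at least 5 CPM that last count was 11, with 7 positive and 4 negative, and Ebp in liver against spleen Treg was at 0.00 (adjusted p = 0.987), its sign turned. voom and DESeq2 each gave 4 positive and 4 negative for the liver-spleen difference, against 2 and 4. The cause of these changes was not tested.

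Leaving out 1 library at a time gave 4 to 8 calls after CCl4 in liver Treg, 0 to 0 in liver Tconv, 0 to 1 in spleen Treg and 0 to 1 in spleen Tconv. Liver against spleen gave 19 to 21 in Treg and 19 to 23 in Tconv, and Treg against Tconv 15 to 19 in liver and 12 to 16 in spleen. The differences of effects gave 0 to 2 between liver Treg and liver Tconv, 2 to 4 between liver Treg and spleen Treg, 0 to 0 between spleen Treg and spleen Tconv, and 2 to 7 for the liver-spleen difference.

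Libraries of different populations share sample numbers. Of 48 pairs with the same number and treatment, 31 had a correlation of deviations over 0.1 (range -0.08 to 0.53). Of the 48, 38 correlated best with their own number, among the 5 CCl4 or 3 control libraries of the other group. In none of the 4 comparisons of tissues or cell types were all pairs over 0.1, though between spleen Treg and spleen Tconv the lowest was 0.099. Same-number libraries of a treatment thus shared deviations, as paired libraries would, but the labels do not tie numbers to animals. The main fit did not model this, so its p-values for tissues and cell types leave such pairing out. Across CCl4 and control, whose animals differ, 1 of 12 pairs was over 0.1 (-0.26 to 0.14). For CCl4 against control the block was the sample number alone, which ties libraries of different animals and so is no test of pairing. With it the count was 5 in liver Treg, where Acat2, Idi1 and Cyp51 were lost, 1 in spleen Treg and 1 in spleen Tconv. For the other comparisons the block was treatment and sample number together. With that block the count was 2 for the CCl4 effect of liver Treg against liver Tconv. Members then lost were Ebp (liver against spleen, Treg), Stard4 (Treg against Tconv, liver) and Abcg1 (liver-spleen difference). The same block split the liver-spleen difference into 5 positive and 3 negative. Depth limits Nr1h3 most, at 1 to 165 estimated counts per library.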

Other observations

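The 5 genes that share a start region with a member were read as values, since they were chosen after the data were seen. In liver Treg after CCl4 edgeR called none of them: Mmab beside Mvk was at -0.37 in log2 fold change (adjusted p = 0.314), Nadsyn1 beside Dhcr7 at -0.24 (0.21), Isca2 beside Npc2 at 0.10 (0.56), Cetn2 beside Nsdhl at 0.20 (0.115) and Acp2 beside Nr1h3 at 0.36 (0.107). Acp2, a lysosomal phosphatase, averaged 27.5 ± 2.57 CPM in CCl4 and 21.5 ± 0.945 CPM in control libraries (SD, n = 5 and 3), far above Nr1h3 at 0.936 ± 0.265 and 0.617 ± 0.542 CPM.

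Macrophage and other myeloid transcripts were present at low levels. The 13 myeloid markers summed to 62.8 to 121 CPM in CCl4 and 18.3 to 23.6 CPM in control libraries of spleen Treg, where C1qa, C1qb and S100a8 were higher after CCl4. In liver Treg, 4 hepatic stellate cell markers summed to 6.58 to 57.8 CPM in CCl4 and 4.50 to 9.29 CPM in control libraries, with Col1a2 higher.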
